A study of Mus musculus with 3 samples.

Results

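The myogenic regulatory factor (MRF) loci are the stretches of the mouse genome around *Myod1*, *Myf5*, *Myf6*, and *Myog*. They were defined by position alone, as 3 windows of mm9: chr7:53580000-53690000 for *Myod1* (110 kb), chr10:106820000-107020000 for the neighbouring genes *Myf5* and *Myf6* (200 kb), and chr1:136130000-136240000 for *Myog* (110 kb). Every H3K27ac peak that overlapped a window was a member, which gave 58 of the 97857 peaks in the deposited lists. They fell into 31 of the 52693 merged regions, a region being a stretch in which peaks of the 3 lists overlap. H3K27ac was measured by ChIP-seq in tibialis anterior (TA) muscle of C57/BL6 mice kept to 2, 10, or 20 months of age, with 1 library per age and the same antibody (Abcam ab4729) in each. The mice carried no label of an allele or a treatment, the sources used here give neither their sex nor the number pooled per library, and the methods give the middle age as a range that begins at 10 months. The extraction protocol in the labels speaks of activated satellite cells (SCs) and of RNA, while the tissue label names TA muscle. Since no mm9 annotation was used, markers of myofibers, fibroblasts, endothelium, or leukocytes were not checked in the peak lists. There are no replicates, so ages were compared without a test, and every interval below covers counting error only.

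The 4 MRFs are basic helix-loop-helix transcription factors that pair with E proteins, bind E-box motifs (CANNTG), and turn on muscle genes, often beside MEF2 factors. MyoD (*Myod1*) and Myf5 commit cells to the muscle lineage and are used by SCs and myoblasts, myogenin (*Myog*) drives terminal differentiation, and MRF4 (*Myf6*) is the family member best expressed in adult myofibers. *Myod1* is known to be controlled by a core enhancer and a distal regulatory region upstream of its promoter, and *Myf5* and *Myf6* share a long array of enhancers. H3K27ac marks promoters and enhancers in use. Besides myofibers, the TA contains SCs, vessels, connective tissue, and leukocytes, so that fewer cells of a type and less acetylation per cell cannot be told apart here.

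Other genes lie close to the MRFs. In the order of RefSeq (GRCm38.p6), the protein-coding neighbours of *Myod1* are *Otog* on one side and *Kcnc1*, a potassium channel gene, on the other. *Myf5* and *Myf6* stand between *Lin7a* and *Ptprq*, and *Myog* between *Adora1*, an adenosine receptor gene, and *Ppfia4*. The start sites of these genes in mm9 were not used, so a peak is given by its window and position and is not assigned to a promoter or to a gene.

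The sequence before the start site was in the RefSeq promoter table for 2 of the 4 genes, *Myog* and *Myf5*, and was not found there for *Myod1* and *Myf6*. Both are shown because myogenin and Myf5 act through the E-box. The upstream sequences show only whether it occurs shortly before the start sites of their own genes, and no other stretch was searched. They are the 250 bases before the start site, 5′ to 3′ on the coding strand, at chr1:134289754-134290003 (plus strand) for *Myog* and chr10:107486135-107486384 (minus strand) for *Myf5*. These positions are in GRCm38.p6 and must not be set against the mm9 positions of the peaks. Capitals mark matches to the E-box CANNTG and to TANNNNTA, the outer bases of the MEF2 core. Each pattern reads the same on both strands.
Myog: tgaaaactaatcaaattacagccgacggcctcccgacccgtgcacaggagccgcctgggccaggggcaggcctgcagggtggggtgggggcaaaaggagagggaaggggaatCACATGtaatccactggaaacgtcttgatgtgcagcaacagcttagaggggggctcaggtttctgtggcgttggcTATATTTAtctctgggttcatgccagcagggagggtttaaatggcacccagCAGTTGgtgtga
Myf5: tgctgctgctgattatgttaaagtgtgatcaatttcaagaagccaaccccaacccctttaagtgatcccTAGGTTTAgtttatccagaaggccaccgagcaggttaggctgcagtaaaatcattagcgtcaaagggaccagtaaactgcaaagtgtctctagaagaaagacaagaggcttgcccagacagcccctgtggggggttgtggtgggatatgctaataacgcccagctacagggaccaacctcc
The *Myog* sequence held 2 E-boxes, beginning 138 and 12 bases before the start site, and 1 TANNNNTA match between them, 63 bases before it. The *Myf5* sequence held 0 E-boxes and 1 TANNNNTA match, 181 bases before the start site. No match overlapped another. Among all 32851 promoters of this length, 66.2% held an E-box and 34.4% held TANNNNTA, so both patterns are common and a match describes the sequence only.

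Fewer H3K27ac peaks were listed at the MRF loci at 2 months than at the later ages. Over the 3 windows, 9 peaks were called at 2 months, then 25 and 24 at 10 and 20 months. At *Myod1* there were 5, 12, and 10 peaks in that order, at *Myf5* and *Myf6* 1, 6, and 6, and at *Myog* 3, 7, and 8. The *Myf5* and *Myf6* window thus went from a lone peak to 6, the largest ratio of the 3 windows. In all, peaks at the MRF loci were 2.78-fold as many at 10 months as at 2 months and 2.67-fold at 20 months, whereas the whole lists held 1.97-fold and 2.50-fold as many. The order of 2 and 10 months depends on how the lists are cut. With the 17884 peaks of smallest q in each, the windows held 9, 7, and 11 peaks, fewer at 10 months than at 2 months. With the 50% of smallest q in each, they held 3, 7, and 15. Both cuts rank by q, which rests on another kind of background at 2 months, as described below.

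Per 100 kb, the windows held 2.14, 5.95, and 5.71 peaks at 2, 10, and 20 months. The lists as a whole held 0.956, 1.88, and 2.39 per 100 kb of the effective mouse genome size of MACS2. On this scale the MRF loci were 2.24, 3.16, and 2.39 times as dense as the genome. The effective size is smaller than the full genome, while the windows were counted at full length. Against the full genome these ratios would be larger. *Myod1* was the densest window at every age, with 4.55, 10.9, and 9.09 peaks per 100 kb, while *Myf5* and *Myf6* lay below the genome at 2 months with 0.5. Peaks covered 0.561% of the windows at 2 months, 2.86% at 10 months, and 2.47% at 20 months. Peak width depends on the fragment length of a library, taken as its narrowest peak, which was 148, 222, and 178 bp, so the covered length was not compared further between ages.

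The libraries differ in ways that bear on every comparison with 2 months. Depths implied by the lists were 15.9 M, 18.9 M, and 26.3 M reads (M, mega) at 2, 10, and 20 months. Summit reads and their local background were recovered from the fold and −log10 p that the authors deposited, which succeeded for each of the 58 member peaks. The background of the 2-month list was of another kind, equal to the genome mean for 8 of the 9 member peaks, against 0 of 25 at 10 months and 0 of 24 at 20 months. Over the whole lists this held for 78.3%, 2.87%, and 4.89% of peaks, so it is a property of the lists and not of the MRF loci. Levels are therefore given as summit coverage, the summit reads over the genome-wide mean coverage of that library, and not as fold. The age of 2 months and this difference between the lists cannot be told apart.

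**Figure D1:**
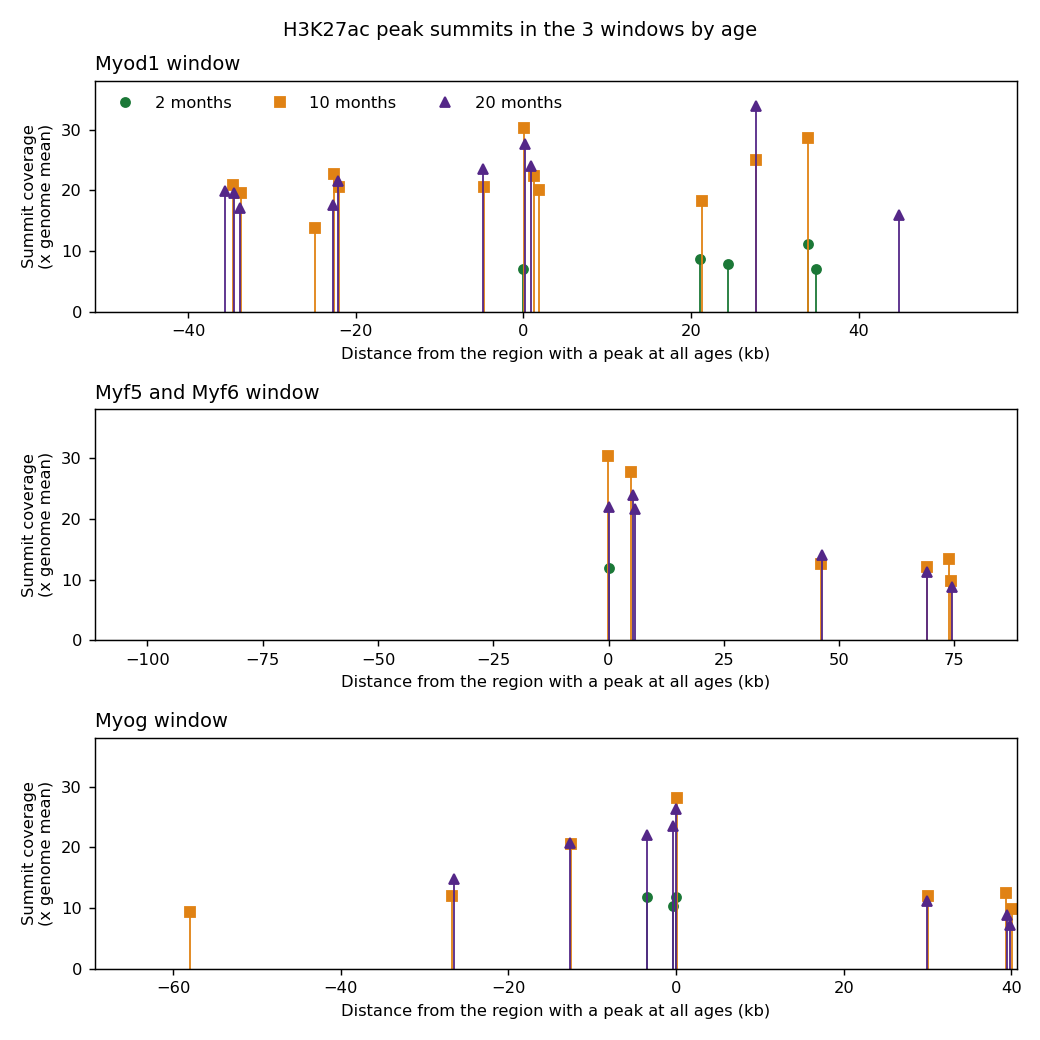
Summit coverage of each member peak (times the genome mean) against distance in kb from the region with a peak at all ages (0 kb), for the 3 windows, with 1 library per age. Peaks of 2 months (circles) number 9 and reach at most 11.9, whereas those of 10 months (squares) and 20 months (triangles) number 25 and 24 and reach 30.3 and 34.0.

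Each window held exactly 1 region with a peak at all ages, which was also the highest of its window in mean summit coverage over the ages, an age with no peak being counted as 0. At *Myod1* this order rests on the 0, since over 10 and 20 months alone the mean of chr7:53658530-53658965 was higher. At *Myod1* this was chr7:53630728-53631564 (837 bp), with 9 summit reads at 2 months against 68 and 69 at 10 and 20 months. Its summit coverage was 7.14 (exact Poisson 95% interval 3.26 to 13.5), 30.3 (23.5 to 38.4), and 27.6 (21.4 to 34.9). The 2-month value was thus the lowest, with an interval that lay apart from those of the later ages, while the later ages overlapped. The summits of 2 and 10 months stood 25 bp apart, and that of 20 months 201 bp from the first.

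At *Myf5* and *Myf6* the region was chr10:106931179-106931733 (555 bp), with 15, 68, and 55 summit reads. Its summit coverage was 11.9 (6.66 to 19.6) at 2 months, 30.3 (23.5 to 38.4) at 10 months, and 21.97 (16.5 to 28.6) at 20 months. Here the 20-month interval overlapped both of the others. At *Myog* the region was chr1:136198736-136199974 (1239 bp), the longest region of all the windows, with 15, 63, and 66 summit reads. Its summit coverage was 11.9 (6.66 to 19.6), 28.1 (21.6 to 35.9), and 26.4 (20.4 to 33.5), again lowest at 2 months. The 3 summits of the *Myog* region lay within 23 bp of each other.

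**Figure D2:**
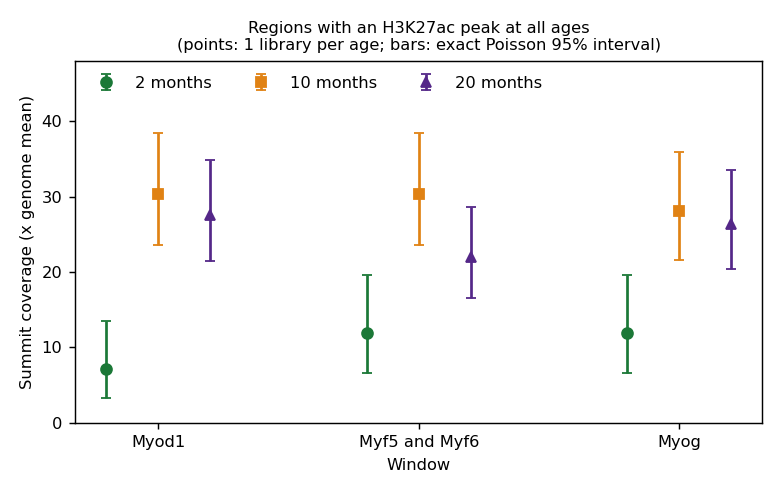
Summit coverage in multiples of the genome mean at the region of each window with a peak at all ages, with 1 library per age (points) and exact Poisson 95% intervals for counting error (bars). The 2-month values of 7.14, 11.9, and 11.9 are the lowest of each window, and the 10- and 20-month intervals overlap in each.

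Set as ratios, the *Myod1* region was 4.25 times as high at 10 months as at 2 months (exact conditional binomial 95% interval 2.11 to 9.69) and 3.86 times at 20 months (1.92 to 8.80). For *Myf5* and *Myf6* the ratios were 2.55 (1.44 to 4.80) and 1.85 (1.03 to 3.52), and for *Myog* 2.36 (1.33 to 4.47) and 2.22 (1.25 to 4.18). All intervals lay above 1 and those of the 3 windows overlapped. Higher coverage at later ages was the rule over the genome. Among all 10596 regions with a peak at all ages and recovered reads, the medians were 1.95 for 10 over 2 months and 2.08 for 20 over 2 months. Coverage above that of 2 months was found in 3 of 3 MRF regions at either later age, as in 93.5% and 95.8% of all such regions at 10 and 20 months. These are the regions that had a peak at every age. There were 8 MRF regions with a 2-month peak, 4 of them with no 20-month peak. When a missing peak was entered as a ratio of 0, the median 20 over 2 month ratio went from 2.22 to 0.923. That value is the mean of the 0 and the lowest measured ratio, 1.85, so it follows from the 0 entered and does not show lower coverage. The ratios that could be measured were all above 1, which the calling itself required. No 2-month summit exceeded 11.9 times the genome mean. At 10 months the background of the regions with a ratio was at least 7.37, where a call needed 15.2. At 20 months a background of 6.47, lower than at any of them, already needed 13.2. At *Myod1*, with 7.14 at 2 months, a call also put the 10-month ratio above 2. The 3 of 3 above 1 therefore say nothing about direction. At least 2-fold higher coverage was found in 3 of 3 MRF regions at 10 months, where 47.1% of all such regions reached it, and in 2 of 3 at 20 months, where 54.4% did. None of the 3 was at least 2-fold lower at 10 or at 20 months, a change that 0.472% and 0.462% of all such regions showed.

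The *Myod1* ratio stood high in the distribution, since 0.415% of all such regions had a 10-month ratio at least as large and 1.22% a 20-month ratio at least as large. Its 2-month level of 9 reads was close to the smallest that the list holds, which is 8. Among the 235 regions that also had 9 reads at 2 months, the median ratios were 2.62 and 2.63, and 5.96% and 9.79% reached those of *Myod1*. The high ratio thus went with a low 2-month count, whose part in it was not tested further.

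**Figure D3:**
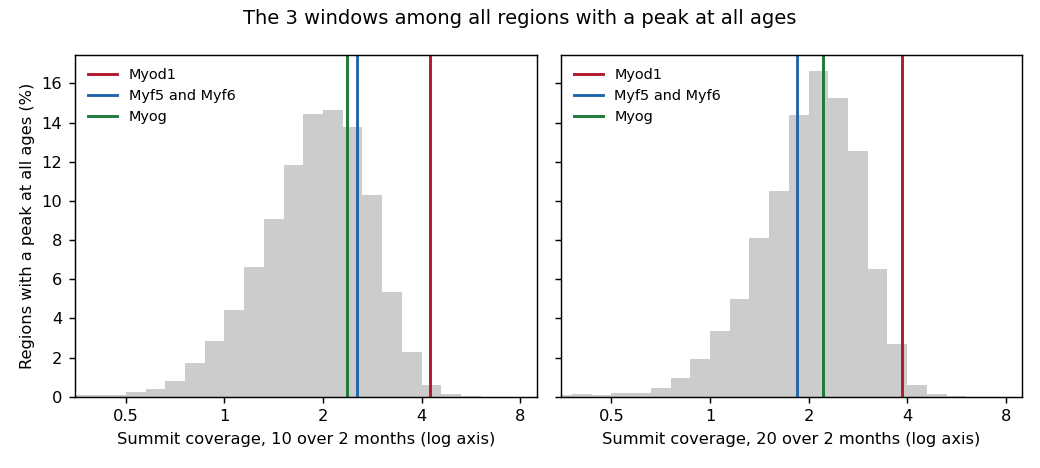
Ratios of summit coverage over the genome mean, 10 over 2 months (left) and 20 over 2 months (right), as the percentage of the regions with a peak at all ages per bin, on a log axis, with the region of each window as a line. *Myod1* lies in the upper tail at 4.25 and 3.86, *Myf5* and *Myf6* at 2.55 (above the upper quartile of 2.47) and 1.85, and *Myog* at 2.36 and 2.22, beside medians of 1.95 and 2.08.

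Between 10 and 20 months the summit coverage of the same 3 regions was lower at 20 months in each, within counting error. The 20 over 10 month ratio of summit coverage was 0.909 (0.641 to 1.29) at *Myod1*, 0.724 (0.498 to 1.05) at *Myf5* and *Myf6*, and 0.938 (0.654 to 1.35) at *Myog*. Each interval included 1, so a change in either direction was not detectable at this depth. Coverage was higher at 20 months in 0 of the 3, against 63% of all regions with a peak at all ages. None was at least 2-fold higher or lower, as were 0.17% and 0.0566% of those regions. In RPM, the summit reads over the library total, which moves with fragment length as well, the ratios were 0.729, 0.581, and 0.752, and the interval at *Myf5* and *Myf6* (0.400 to 0.841) then lay below 1. Over the 19 MRF regions with a peak at 10 and 20 months, the median ratio of summit coverage was 0.929 (range 0.704 to 1.36), against 1.01 over 28429 regions of the genome. It was above 1 in 7 of the 19, against 51% of all such regions. A difference of at least 2-fold upward or downward was seen in 0 of the 19, and in 0.148% and 0.127% of all.

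The remaining regions were mainly those of the later ages. Of the 31 regions, 16 (51.6%) had a peak at 10 and 20 months and none at 2 months, against 33.8% of all merged regions. Regions with a peak at all ages numbered 3 (9.68% against 20.1%), those at 10 months alone 4 (12.9% against 10.4%), and those at 20 months alone 3 (9.68% against 24.6%). Peaks at 2 and 10 months alone were found at 2 regions (6.45% against 0.404%), at 2 and 20 months alone at 1 region (3.23% against 2.52%), and at 2 months alone at 2 regions (6.45% against 8.13%). Of the 25 peaks at 10 months 19 (76%) overlapped a 20-month peak, and of the 24 peaks at 20 months 20 (83.3%) overlapped a 10-month peak. Over the whole lists these shares were 83.7% and 67.5%. Of the 9 peaks at 2 months 6 (66.7%) overlapped a 10-month peak and 5 (55.6%) a 20-month peak, against 67.1% and 74.2% of the whole 2-month list.

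At *Myod1*, peaks at 10 and 20 months without a 2-month peak made up 7 regions, which lay in groups along the window. A pair of them lay 33.7 and 34.7 kb to the left of the all-age region, toward lower coordinates, and a second pair 21.9 and 22.8 kb to the left. Single regions stood 4.79 kb to the left and 1.05 kb to the right. The latter, chr7:53631882-53632501, had summit coverage of 22.3 at 10 months and 24.0 at 20 months. These 6 regions had summit coverage of 19.6 to 22.7 at 10 months and 17.2 to 24.0 at 20 months, a narrow range. The 7th region, chr7:53658530-53658965, lay 27.6 kb to the right and held the highest summit of any window, 34.0 at 20 months, after 24.97 at 10 months. Peaks at 10 months alone, 24.9 kb to the left and 1.82 kb to the right, had 13.8 and 20.1, and peaks at 20 months alone, 35.6 kb to the left and 44.9 kb to the right, had 20.0 and 16.0.

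To the right of the *Myod1* all-age region lay 4 regions with a 2-month peak, and none of them had a peak at 20 months. Over the 3 windows 5 of the 9 peaks at 2 months (55.6%) overlapped a 20-month peak, against 74.2% of the whole 2-month list. The region chr7:53664881-53665338 had summit coverage of 11.1 at 2 months and 28.5 at 10 months and no peak at 20 months. The region chr7:53652172-53652615 had 8.72 and 18.3 and likewise no 20-month peak. Peaks at 2 months alone, with summit coverage of 7.93 and 7.14, lay 24.4 and 34.8 kb to the right. The absence of later peaks there does not show a loss of acetylation. With the background of the nearest peak in the list, a call next to these 2-month peaks needed 15.2 and 25.4 times the genome mean at 10 months and 20.8 times at 20 months, far above what the 2-month list required. For chr7:53664881-53665338 the 10-month summit was 28.5, against the 20.8 needed at 20 months beside a peak 6.23 kb away. The background and summit of this region itself at 20 months are not known, and what set its missing peak was not tested.

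At *Myf5* and *Myf6*, 111 kb at the left of the window held no peak at any age, and each of the 7 regions lay at or to the right of the all-age region. The region chr10:106935995-106936759, 4.92 kb from it, had summit coverage of 27.6 at 10 months and 24.0 at 20 months and was the nearest to it in height. A 20-month peak of 21.6 followed at 5.86 kb. The other regions with a peak at both later ages, 46.2, 68.9, and 74.3 kb away, were lower, with 12.5, 12.0, and 9.81 at 10 months and 14.0, 11.2, and 8.79 at 20 months. A peak at 10 months alone (13.4) lay 73.8 kb away. Thus the H3K27ac peaks of this window were made up of a strong part of a few kb and a weak, distant part. Neither part was assigned to a gene.

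At *Myog*, the region chr1:136186590-136187583 lay 12.3 kb to the left of the all-age region and spanned 994 bp. It had summit coverage of 20.5 at 10 months and 20.8 at 20 months and no peak at 2 months. The region chr1:136195763-136196056, 3.45 kb to the left, had a peak of 11.9 at 2 months and 21.97 at 20 months but none at 10 months. A call beside the nearest 10-month peak needed 15.2, which the 20-month summit exceeded. What set the missing 10-month peak was not tested. The other *Myog* regions at both later ages were weaker, from 9.81 to 12.5 at 10 months and from 7.19 to 14.8 at 20 months. A weak peak at 10 months alone (9.36) was the farthest, at 58.0 kb.

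Where a region had no 2-month peak, its background at that age is not known. The height of a call there can be given only for an assumed background and is no firm bound on the level. The nearest 2-month peak was up to 74.3 kb away. With the background at the genome mean, 8 reads, or 6.34 times the mean, were needed at 2 months, and with that of the nearest 2-month peak 6.34 to 7.93. Of the 16 regions with peaks at 10 and 20 months alone, 9 (56.3%) were at least 2-fold above the former at 10 months, among them each of the 7 at *Myod1*. Over the genome 59.6% of such regions were, so the MRF loci did not stand out. The weakest, chr1:136239108-136239604 near *Myog*, had 9.81 at 10 months and 7.19 at 20 months, the latter below the 7.93 needed at 2 months. There the 2-month list could have missed a summit as high as that of 20 months.

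The authors' fold gave another picture than the summits, since it divides by the local background. At *Myod1* all 12 peaks of 10 months and all 10 of 20 months had a fold under the median of their list, 4.09 and 4.03. Their folds ran from 1.90 to 3.63 and from 2.16 to 3.93. Yet the median summit coverage at *Myod1* was 20.7 at 10 months and 20.8 at 20 months, above the list medians of 15.6 and 14.0. At *Myf5* and *Myf6* it was 12.9 and 17.8 and at *Myog* 12.0 and 17.8, below the list median at 10 months and above it at 20 months. At *Myf5* and *Myf6*, 6 of 6 peaks at 10 months and 4 of 6 at 20 months were under the median fold, and at *Myog* 5 of 7 and 6 of 8. The median background at 10 and 20 months was 7.25 and 5.70 times the genome mean at *Myod1*, 3.66 and 5.62 at *Myf5* and *Myf6*, and 2.63 and 4.17 at *Myog*, against list medians of 3.20 and 2.94. *Myog* at 10 months was thus below its list.

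The background also measures the surroundings of a peak. At 10 and 20 months the background, where it exceeded the genome mean, matched, for 100% of peaks and to within 0.05 reads, a whole count of reads from the same library in the surrounding 10 kb. Divided by depth, it gives the local density of H3K27ac reads as multiples of the genome mean, free of fragment length. The median over the member peaks was 5.99 at 10 months and 5.53 at 20 months, above the list medians just given. The highest density at 10 months was 14.8, around chr7:53664881-53665338 in the *Myod1* window, and 0.446% of that list reached it. Around the all-age regions the density was 8.82 at *Myod1*, 11.0 at *Myf5* and *Myf6*, and 7.37 at *Myog* at 10 months, and 7.28, 8.39, and 7.14 at 20 months. No such value is to be had at 2 months, where the background was of another kind.

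Local density was lower at 20 than at 10 months at 19 of 19 MRF regions with a peak at both ages, where 61.7% of all such regions were lower. The median ratio of 20 over 10 months was 0.850 (range 0.712 to 0.976), against 0.968 over 27573 regions of the genome. At 12 of the 19 regions the exact interval lay below 1, where 18.9% of all regions did so, and it lay above 1 at 0 of 19, against 4.91%. At *Myf5* and *Myf6* this was so for 5 of 5 regions, with ratios of 0.712 to 0.789. Around the all-age region of these genes the surrounding 10 kb held 1111 reads at 10 months and 1180 at 20 months in the deeper library, a ratio of 0.763 (0.702 to 0.829). At *Myod1* the interval lay below 1 for 7 of 8 regions, with ratios of 0.747 to 0.948, and the exception was chr7:53658530-53658965 (0.948, 0.880 to 1.02). At *Myog* it did so for 0 of 6 regions, with ratios of 0.850 to 0.976.

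Neighbouring regions share reads, and the 19 regions make up 11 stretches whose 10-kb surroundings do not overlap. With the region of most summit reads in each, the ratio was below 1 in 11 of 11 and the interval in 6 of 11, 3 of 3 at *Myf5* and *Myf6*, 3 of 4 at *Myod1*, and 0 of 4 at *Myog*. A 10-month density of at least 5 was reached by 12 of the 19 regions. Among the 7446 regions of the genome that reached it, the median ratio was 0.935 and the interval lay below 1 for 36.7%, against 0.851 and 9 of 12 at the MRF loci. These are differences between 1 library and another, and the part of a library's overall enrichment in them was not tested.

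**Figure D4:**
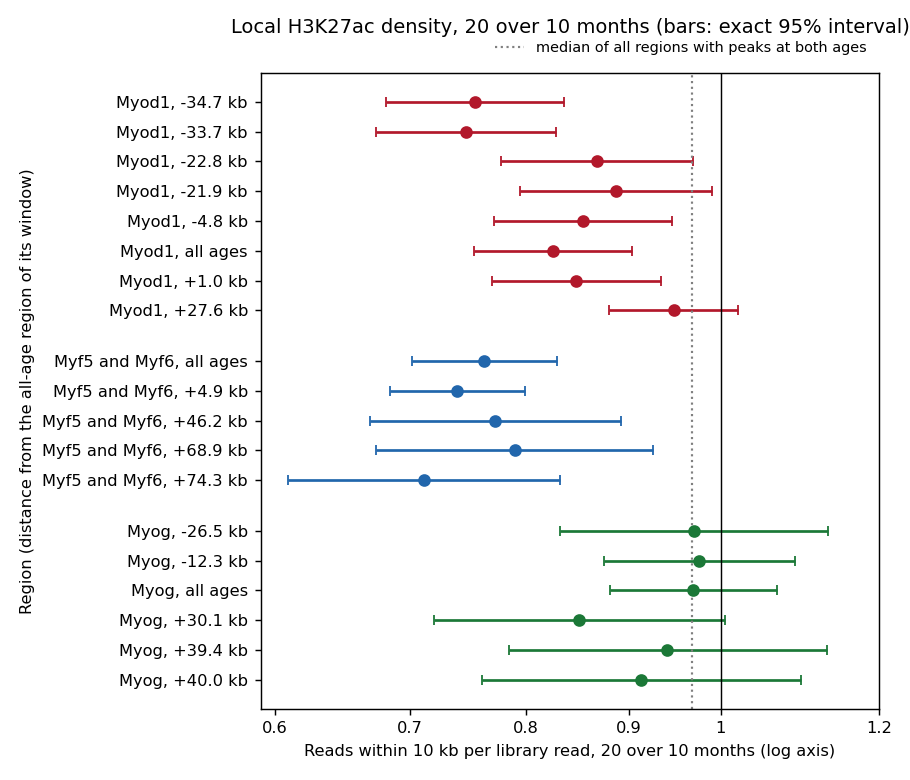
Ratio of reads in the 10 kb surrounding the summit (full width), per read of the library, 20 over 10 months, on a log axis. Shown are the 19 regions with a peak at both ages, labelled by window and distance from the all-age region. Points are 1 library per age, bars exact 95% intervals for counting error, and the dotted line the median of all such regions (0.968). Every point lies below 1, the *Myf5* and *Myf6* points lie between 0.712 and 0.789, and each *Myog* interval includes 1.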

How the data were processed

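H3K27ac ChIP-seq peak lists of TA muscle, 1 per age, were used. The submitters' notes name Bowtie2 (version not given in the sources used here), mm9, and MACS2 2.1.0, and peaks were called by the authors in each library. Inputs and default MACS2 settings are described for public human data, and for the mouse libraries neither a control nor settings are stated in the sources used here. The deposited columns hold positions, a score, a fold, and a −log10 p and −log10 q. The fold was read as the ratio of the summit pileup over the background, with 1 added to each. The deposited score is 10 times the −log10 q, cut to a whole number, and was not used.

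The software was scipy 1.17.1 for intervals, pandas 2.3.3 and numpy 2.4.6 for tables, and matplotlib 3.10.9 for plots, under Python 3.11.15. Whole summit reads and background were solved from fold and −log10 p (tolerance 0.001), tested on simulated data. At 10 and 20 months 1 peak each, outside the windows, was not recovered. The smallest background was taken as the genome mean, and with the narrowest peak as fragment length and the effective mouse genome size of MACS2 it gave the depth. Peaks overlapped when sharing at least 1 bp, and a region took its highest summit. The height needed for a call was the fewest reads reaching the smallest −log10 p of the list. Intervals (95%) cover counting error only.

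The windows, genes, and measures were chosen with earlier results of these data known, and the call heights, local density, and motifs were added after the lists had been seen. Named in the text are the all-age regions and, in each window, the 3 highest in mean summit coverage; other regions were named after their values were seen. Alternatives concerned thresholds, list length, merging, widths, window size, and scale. The myogenic and cell type gene lists drawn up for an mm9 annotation were not used here.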

Additional observations from a re-analysis of the deposited data

How the results depend on the processing

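Each list and threshold decides how many MRF peaks are counted. With the 50% of each list of smallest q, the windows held 3, 7, and 15 peaks at 2, 10, and 20 months over 0.212%, 1.13%, and 1.62% of their length, and 0, 5, and 1 regions had peaks at all ages, at 10 and 20 months alone, and at 2 months alone. With lists of equal length by q (17884 peaks), the windows held 9, 7, and 11 peaks over 0.561%, 1.13%, and 1.26%, so that 2 months exceeded 10 months in number, and 2 regions were at all ages, 2 at 10 and 20 months alone, and 5 at 2 months alone. Since q rests on another background at 2 months, these counts do not show a loss at later ages. A minimum width of 222 bp left 5 peaks at 2 months, as did a minimum of 10 times the genome mean, a setting chosen after seeing the data. Windows shortened by 20 kb at each end held 16 and 15 peaks at 10 and 20 months and 9 regions at both alone. With a ratio of 0 entered for 2-month regions with no later peak, the median 20 over 2 month ratio turned from 2.22 to 0.923 (8 regions, 4 of them with no 20-month peak). The turn follows from the 0 entered. A measured ratio below 1 was not possible, since a later call in these surroundings needed more than any 2-month summit reached. The direction at regions with no later peak is therefore not known. The other 34 values kept their direction and moved by at most 1.5 times for counts and shares, or stayed within the interval for ratios, and the median local density ratio was 0.850 with 1 region per stretch as well. Taking the region with the highest 2-month fold changed nothing at *Myf5* and *Myf6* and gave no 20 over 10 month ratio at *Myod1* and *Myog*, where that region lacked a later peak. No paired analysis was possible because each age has 1 library. The 2-month summits rest on 9 to 15 reads.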
